A study of Mus musculus with 8 samples.

Results

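Brdt islands at the centromere-side ends of mouse autosomes were described from anti-Brdt ChIP-seq of male germ cells. An island is a stretch in which ChIP reads cluster above a control library. The members were all islands whose start lay below 4000000 on chromosomes 2 to 13 and 15 to 19 of mm9, which amounts to the first Mb of assembled sequence, from 3 to 4 Mb, on 17 autosomes. They were 234 of 36615 islands in wild-type spermatocytes, 456 of 74968 in wild-type round spermatids, 672 of 112671 in BD1del spermatocytes and 1275 of 201828 in BD1del round spermatids. Together they were 2637 of 426082 islands. Each chromosome end was compared with the window from 4 to 10 Mb of the same chromosome. Chromosomes 1 and 14 were not among the members. Where 4 values follow each other below, they are in the order of the lists just given.

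The groups were adult wild-type mice of the strain C57BL/6 and mice carrying the allele BD1del, in which Brdt lacks its first bromodomain, each sampled as meiotic spermatocytes and post-meiotic round spermatids separated on a BSA gradient. For wild type, fractions of 10 mice were pooled and chromatin was cut with MNase to fragments of about 200 bp. For BD1del the sources used here do not give strain, pool size or how chromatin was cut. The wild-type antibody was an immunopurified rabbit antibody raised against recombinant Brdt, and that used for BD1del is named only as anti-Brdt. Each group had 1 ChIP and 1 input library, so no comparison between groups has a test or a replicate check, and intervals cover counting error only. The wild-type lists are named for F3 tags and the BD1del lists for paired F3 and F5 tags, so genotype and read set cannot be told apart.

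Brdt is the testis-specific member of the BET family of double bromodomain proteins, which bind acetylated lysines on histones. Mouse autosomes carry their centromere at the very end, so that the first assembled bases lie beside large arrays of pericentromeric satellite DNA, which are left out of the assembly as an unsequenced stretch. In round spermatids the pericentromeric heterochromatin of the chromosomes gathers in a chromocentre, and the first bromodomain of Brdt is known to be needed for an intact one. The sequence next to these arrays holds repeats that are copied between chromosomes, where reads of any library, including input, can pile up.

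The ends were more densely covered by islands than the next 6 Mb in all 4 lists. Islands covered 4.68% of the first Mb against 3.09% of the 4 to 10 Mb window in wild-type spermatocytes, and 5.78% against 3.97% in wild-type round spermatids. In BD1del the values were 6.81% against 5.46% in spermatocytes and 6.21% against 4.94% in round spermatids. The ratio of the covered shares was 1.51 (1.31 to 1.74), 1.45 (1.31 to 1.61), 1.25 (1.15 to 1.35) and 1.26 (1.18 to 1.33), with 95% intervals that take the counts of islands as binomial and their lengths as fixed. They leave out the spread in island length and between chromosomes, so they are too narrow where a few long islands weigh. The number of islands per Mb differed less: it was 13.8 against 11.4, 26.8 against 24.4, 39.5 against 40.4 and 75.0 against 74.4. The ratio of island numbers was 1.21 (1.04 to 1.39) in wild-type spermatocytes, and its interval included 1 in the other 3 lists. Median island length at the ends was 2800, 1800, 1200 and 600 bases, against 2400, 1400, 1200 and 400 in the comparison window. The rest of these chromosomes, beyond 10 Mb, was covered to 2.63%, 4.18%, 5.70% and 5.21%. The number of ChIP reads in all islands of a list, the only depth the lists give, was 6476047, 4506707, 6391762 and 7310429, with 7147741, 7407692, 10905618 and 8482499 control reads.

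The excess was largest in the first 300 kb. In the first 100 kb islands covered 8.08%, 14.1%, 18.4% and 11.5%, which was 2.61, 3.55, 3.36 and 2.33 times the 4 to 10 Mb window. From 100 to 300 kb the covered shares were 7.31%, 7.16%, 6.97% and 6.31%, or 2.37, 1.80, 1.28 and 1.28 times that window. From 300 kb to 1 Mb they were 3.44%, 4.20%, 5.11% and 5.42%, or 1.11, 1.06, 0.936 and 1.10 times. Without the first 100 kb the ratio of the end to the comparison window was 1.39 for wild-type spermatocytes, 1.22 for wild-type round spermatids, 1.01 for BD1del spermatocytes and 1.14 for BD1del round spermatids. Without the first 200 kb it was 1.23, 1.15, 0.975 and 1.11, so the end of BD1del spermatocytes was then no longer the denser window. The raised stretch reached beyond 100 kb most clearly in wild-type spermatocytes, where the bin from 100 to 200 kb, at 8.35%, was as covered as the first. Around the limit at 4 Mb, the last 100 kb before it and the first 100 kb beyond it were covered to 3.51% and 4.62%, 4.29% and 3.89%, 3.75% and 5.69%, and 5.29% and 5.07% in the 4 lists. The last 17 members and the first 17 islands beyond it, 1 per chromosome, had median folds of 2.25 and 1.71, 2.47 and 2.71, 3.69 and 3.94, and 5.99 and 6.63. In BD1del spermatocytes 1 member ran across the limit.

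**Figure D1:**
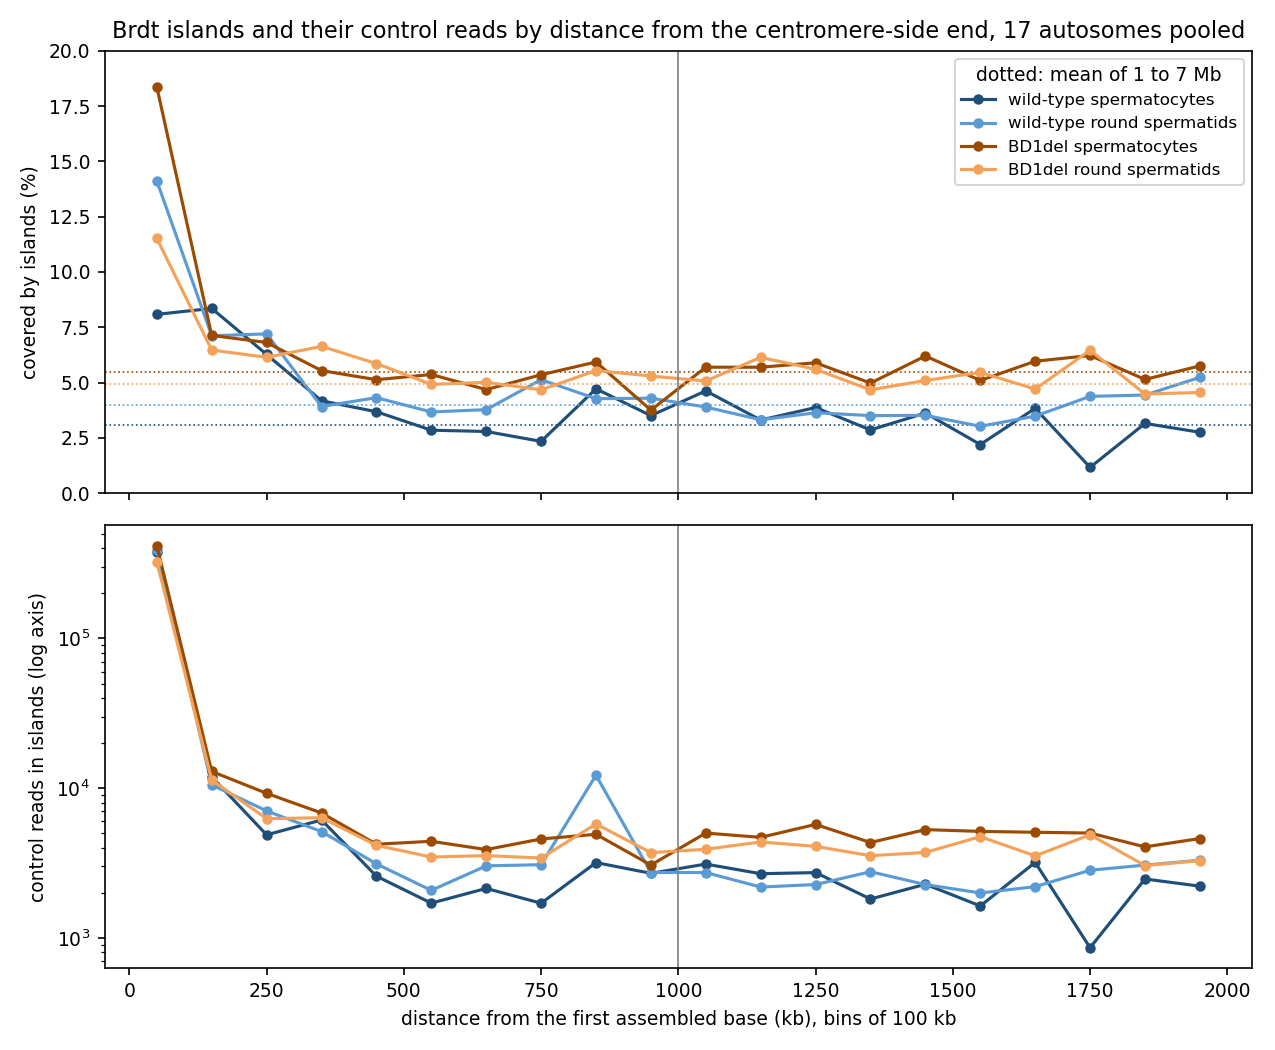
Top, share of sequence covered by islands in bins of 100 kb counted from the first assembled base, pooled over 17 autosomes, 1 line per list, with the mean of the 4 to 10 Mb window dotted. Bottom, control reads in the islands that start in each bin, on a log axis. The first bin reaches 8.08%, 14.1%, 18.4% and 11.5% and holds 380580, 390635, 417316 and 325188 control reads. Most of those control reads lie in 1 island of chromosome 9.

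Control reads were piled up in the same first 100 kb. Islands that start there held 380580, 390635, 417316 and 325188 control reads, while no other bin of 100 kb in the first Mb held more than 12940. Most of these reads lay in 1 island of chromosome 9, with 359691, 355988, 309999 and 295799. The median island of the first 100 kb had 39.7, 48.0, 65 and 50 control reads per kb. Over all members, control reads per kb of island were 525, 447, 407 and 354, against 53.0, 49.02, 52.7 and 45.3 in the comparison window. The median island differed little, at 38.8, 37.5, 50 and 42.9 control reads per kb against 38.3, 33.1, 50 and 42.9. The pile-up thus lay in a few islands: over 200 control reads per kb were found in 9, 12, 14 and 10 members, which is 3.85%, 2.63%, 2.08% and 0.784% of them, against 2.06%, 1.57%, 0.243% and 0.119% of islands in the comparison window. Without islands over this level the covered ratio was 1.41, 1.35, 1.05 and 1.17. The part of the pile-up in the remaining excess was not tested.

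Individual chromosome ends ranged widely, from 1.84% to 8.58% covered in wild-type spermatocytes, 3.14% to 11.1% in wild-type round spermatids, 2.88% to 13.9% in BD1del spermatocytes and 4.06% to 8.84% in BD1del round spermatids. The end was denser than the next 6 Mb on 14, 13, 9 and 14 of the 17 chromosomes, and it was the densest of the 7 bins of 1 Mb from 3 to 10 Mb on 6, 7, 6 and 7. Only on chromosomes 3, 4, 5, 6, 9 and 16 was it denser in all 4 lists, and only on chromosome 19 less dense in all 4. On chromosome 5 in BD1del spermatocytes the difference was small, 5.90% against 5.897%. The median ratio over chromosomes was 1.47, 1.41, 1.0006 and 1.17, so that in BD1del spermatocytes a few ends made up the pooled excess. Across the 17 chromosomes the covered shares of the ends had Spearman correlations of 0.615 between the wild-type stages and 0.764 between the BD1del stages, 0.243 between genotypes in spermatocytes and 0.711 in round spermatids. For the comparison window the same 4 correlations were 0.735, 0.743, 0.272 and 0.167, close to those of the ends except in the last pair. These correlations describe chromosomes of the same 4 libraries, which share the assembly.

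**Figure D2:**
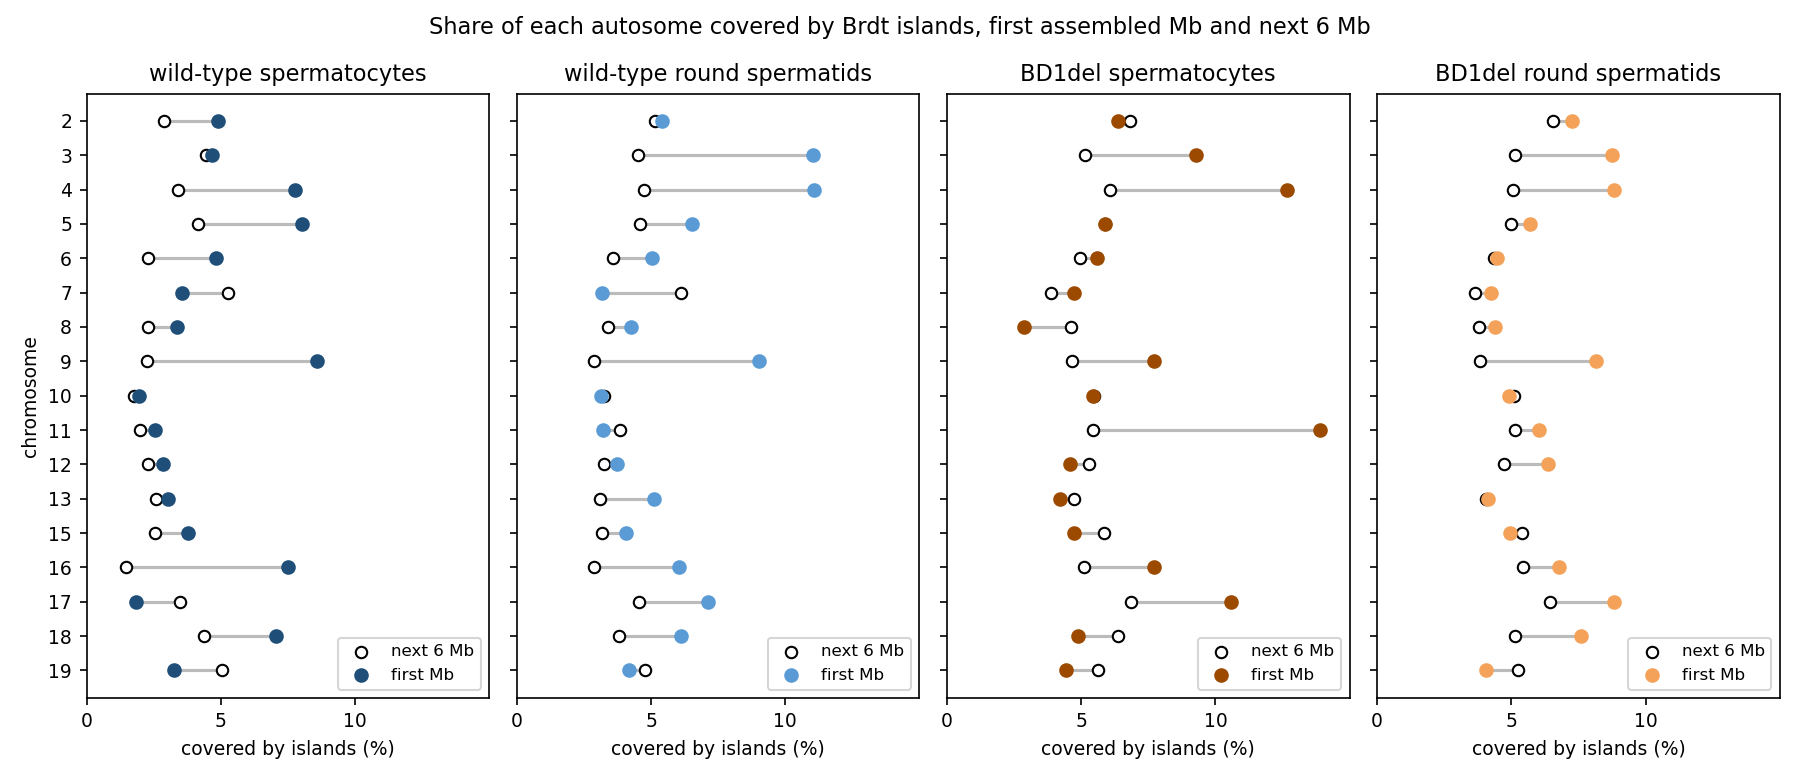
Share of sequence covered by islands in the first assembled Mb (filled points) and in the next 6 Mb (open points) of each of 17 autosomes, 1 panel per list. The ends of chromosomes 9 and 4 lie right of their open point in every panel, that of chromosome 19 lies left of it in every panel, and the end of chromosome 11 stands apart at 13.9% in BD1del spermatocytes.

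Chromosome 9 had the end with most reads. Its islands covered 8.58%, 9.02%, 7.72% and 8.16% of the first Mb, against 2.26%, 2.88%, 4.66% and 3.83% of the next 6 Mb. A single island at the first assembled bases made up 39 kb, 38.8 kb, 40 kb and 40 kb of this. It ran from 2999801 to 3038800 in wild-type spermatocytes, 2999801 to 3038600 in wild-type round spermatids and 2999801 to 3039800 in both BD1del lists. ChIP reads in it numbered 452237, 325092, 456487 and 301891. Control reads there numbered 359691, 355988, 309999 and 295799. No island of any chromosome had more control reads in any of the 4 lists. It alone took 6.98%, 7.21%, 7.14% and 4.13% of all ChIP reads in islands of the lists and 5.03%, 4.81%, 2.84% and 3.49% of the control reads. Its fold, the ratio of ChIP to control reads scaled by library size as the authors deposited it, was 2.25 (2.24 to 2.26), 3.46 (3.44 to 3.48), 8.30 (8.27 to 8.34) and 5.56 (5.53 to 5.59). Before scaling, ChIP reads per control read were 1.26, 0.913, 1.47 and 1.02.

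A short island on chromosome 12 had nearly the same folds. It lay from 3109801 to 3110200 in 3 lists and from 3109201 to 3110200 in wild-type round spermatids. With 9858, 4000, 11640 and 12965 control reads per kb it was as heavily loaded as the chromosome 9 island, at 9223, 9175, 7750 and 7395 per kb, and the low value in wild-type round spermatids comes from the longer island. Its folds were 2.25 (2.16 to 2.35), 3.54 (3.39 to 3.70), 8.41 (8.10 to 8.73) and 6.00 (5.78 to 6.23). In the first 3 lists these intervals included the fold of the chromosome 9 island, and in BD1del round spermatids the interval lay above it. No sequence or repeat annotation of mm9 was used here, so whether the islands share a repeat was not tested.

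A pair of islands on chromosomes 4 and 11 had lower folds that were again close to each other. The chromosome 4 island, 3015801 to 3019600 in wild-type spermatocytes, held 1308, 1441, 1760 and 1484 control reads per kb in the 4 lists. The chromosome 11 island, 2999801 to 3005000 in wild-type spermatocytes, held 1546, 1243, 1585 and 1583. Folds on chromosome 4 were 1.76, 2.31, 4.997 and 3.32, and on chromosome 11 they were 1.74, 2.13, 4.82 and 3.51. These 4 islands were the members of over 1000 control reads per kb that every list held, and wild-type round spermatids had 1 more. That one, on chromosome 2 from 3881001 to 3885800, had 1931 control reads per kb and a fold of 1.16, and BD1del round spermatids covered 87.5% of it with an island of fold 1.14. This load was passed by 4 of 234, 5 of 456, 4 of 672 and 4 of 1275 members. Beyond 10 Mb of the same chromosomes it was passed by 29 of 21086, 34 of 52358, 20 of 83948 and 17 of 154383 islands, a smaller share in each list. Elsewhere in the genome, with all other chromosomes counted, 81, 97, 46 and 37 islands passed it. The load is thus more frequent at the ends but not confined to them.

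At the 4 heavily loaded islands the stage direction of the deposited fold differed between the genotypes. On the deposited fold, in wild type the fold in round spermatids was 1.54 times that in spermatocytes on chromosome 9, 1.57 times on chromosome 12, 1.31 times on chromosome 4 and 1.22 times on chromosome 11. In BD1del the same ratios were 0.669, 0.714, 0.665 and 0.727. Loaded islands away from the ends, such as a stretch on chromosome 2 given under other observations, had the same directions, so these are not particular to the ends. At the 4 end islands, counts without scaling put round spermatids below spermatocytes in both genotypes. The ratios were 0.726, 0.743, 0.620 and 0.577 in wild type and 0.693, 0.739, 0.688 and 0.753 in BD1del. The ratio of ChIP to control library size that enters the fold was 0.559 and 0.264 in wild type and 0.177 and 0.184 in BD1del, and it acts on every island of a list alike. Counts without scaling differ from the fold only by this library ratio, so they are no second readout and cannot decide the direction. Spermatocytes of BD1del had 3.69, 3.74, 2.84 and 2.77 times the deposited fold of wild type. Unscaled, which changes only the library ratios, the values were 1.17, 1.19, 0.899 and 0.878 times. For round spermatids the values were 1.61, 1.69, 1.44 and 1.65 times with scaling and 1.12, 1.18, 0.999 and 1.14 times without. Over all members the median deposited fold was 1.64 and 2.42 in the wild-type stages and 3.87 and 7.03 in those of BD1del. With 1 library per group the difference between genotypes was not tested.

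**Figure D3:**
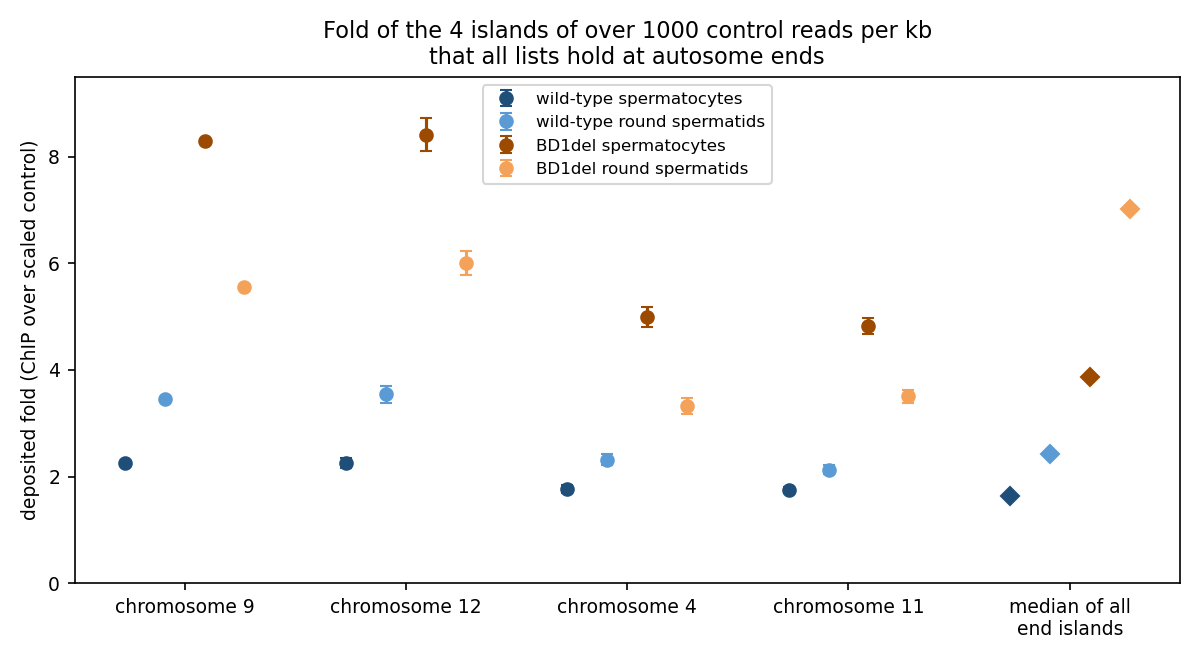
Deposited fold in each list of the 4 autosome-end islands with over 1000 control reads per kb that all lists hold, with exact 95% counting intervals, and beside them the median fold of all end islands as diamonds. Wild-type round spermatids lie above wild-type spermatocytes, and BD1del round spermatids lie below BD1del spermatocytes, at each of the 4 islands. The intervals leave out the library scaling, without which round spermatids lie below spermatocytes in both genotypes. Counts without scaling carry the library sizes, so they cannot decide the direction.

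These few islands set the reads of the ends as a whole. Summed over all members, ChIP reads were 2.17, 3.17, 6.29 and 5.28 times scaled control, against 1.66, 2.43, 3.44 and 5.45 in the comparison window. Without islands of over 1000 control reads per kb the values at the ends were 1.62, 1.90, 1.97 and 4.21, below the comparison window, at 1.70, 2.47, 3.44 and 5.45. In BD1del spermatocytes 1 island just under that limit weighs on the remaining sum. It lay on chromosome 11, was 80.8 kb long, held 66997 control reads at 829 per kb and had a fold of 1.06. The 1.97 is thus no general level of the members of that list. The median fold of the members was 1.64, 2.42, 3.87 and 7.03, against 1.70, 2.81, 3.85 and 7.26. A fold of at least 2 was found in 28.2% (22.5 to 34.4%), 67.8% (63.3 to 72.04%), 92.6% (90.3 to 94.4%) and 98.1% (97.2 to 98.8%) of the members. Over all islands of the 17 chromosomes the same shares were 36%, 80.7%, 94.6% and 99%. In wild-type round spermatids the share at the ends also lay below that of the comparison window, 78.4% (76.7 to 80.0%). The median fold at the ends was thus below that of the comparison window in 3 lists and slightly above it in BD1del spermatocytes, where it was the higher one on 11 of 17 chromosomes.

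**Figure D4:**
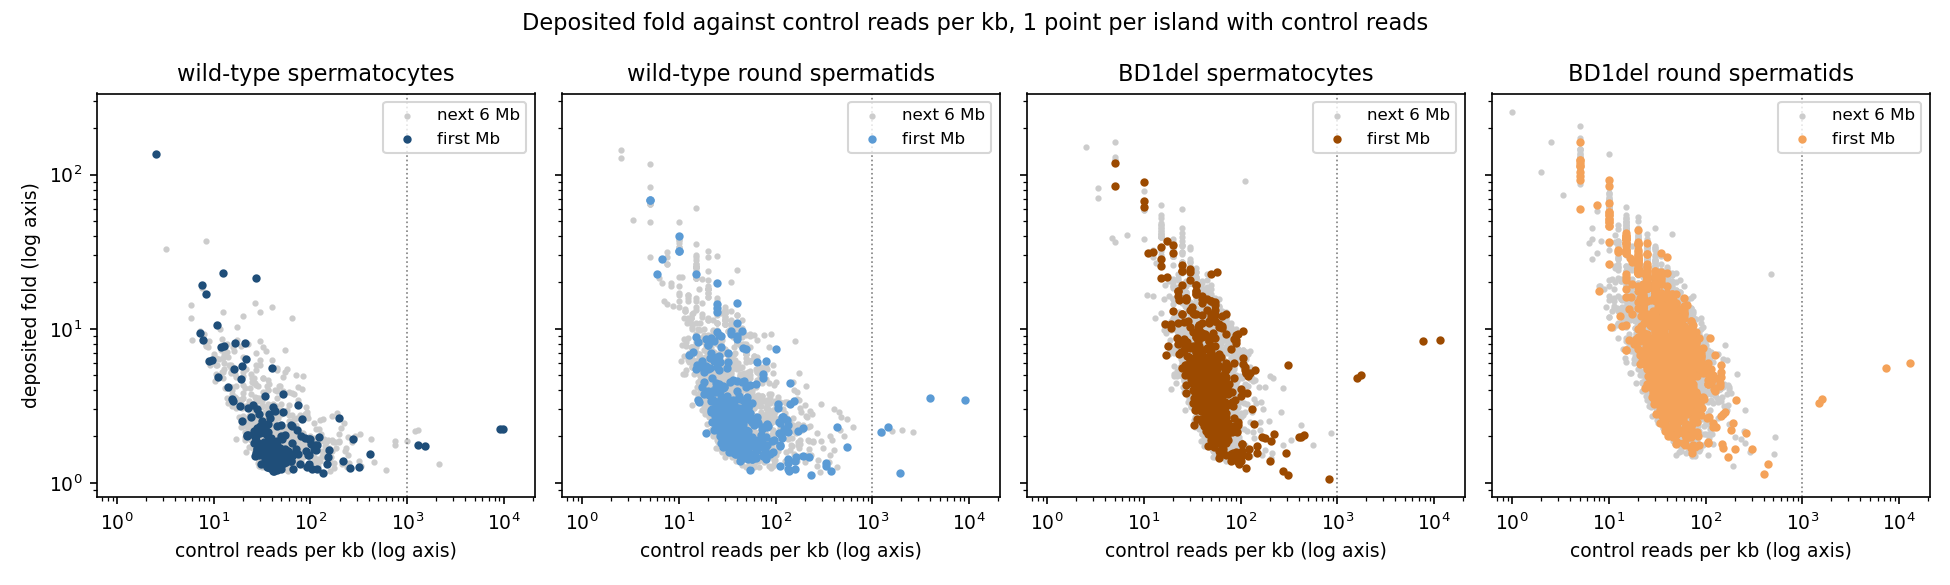
Deposited fold against control reads per kb for every island with control reads in the first Mb (coloured) and the next 6 Mb (grey), 1 panel per list, both axes logarithmic, with a dotted line at 1000 control reads per kb. Right of the line lie 4, 5, 4 and 4 members and 3, 4, 0 and 0 islands of the comparison window. The fold has the control count in its denominator.

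Further ends were covered by long islands of low fold. Chromosome 17, whose proximal part holds the t-complex, had no wild-type spermatocyte island within a stretch of about 34 kb that each other list covered with 1 island. It lay from 3005201 to 3039200 with a fold of 1.38 in wild-type round spermatids, from 3003801 to 3039000 with a fold of 1.99 in BD1del spermatocytes and from 3004801 to 3039400 with a fold of 2.44 in BD1del round spermatids. These islands had 161, 167 and 120 control reads per kb. The end of chromosome 17 was accordingly covered to 1.84% in the first list and 7.14%, 10.6% and 8.84% in the others. Past its first 100 kb the values were 0.511%, 2.96%, 6.98% and 5.64%. Chromosome 3 was similar in its first 100 kb, where islands took up 4.80% in the first list and 32.6%, 41.0% and 41.4% in the others. It held an island of BD1del round spermatids from 3000001 to 3018600, of fold 2.62, which wild-type spermatocyte islands did not meet.

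Chromosome 11 stood apart in 1 list. Its first Mb was covered to 2.56%, 3.22% and 6.04% in the first 2 lists and BD1del round spermatids, but to 13.9% in BD1del spermatocytes, where the first 100 kb was covered to 88.2%. Most of that was an island from 3019201 to 3100000, 80.8 kb long, the longest of all members. It held 12569 ChIP and 66997 control reads, or 829 control reads per kb, and its fold was 1.06 (1.04 to 1.08). No island of the other 3 lists lay within it. Without it the covered ratio of BD1del spermatocytes was 1.16 in place of 1.25.

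Chromosome 16 was dense without the first 100 kb. Islands covered 7.50% of its first Mb in wild-type spermatocytes, 5.16 times the next 6 Mb and the highest ratio of any chromosome and list. In the other lists they covered 6.06%, 7.72% and 6.78%. None of the wild-type spermatocyte islands lay in the first 100 kb, and 8.33% of the remaining 900 kb was covered. The 2 longest were from 3335201 to 3354800, of fold 1.16, and from 3111801 to 3125400, of fold 1.32, with 136 and 147 control reads per kb. Islands of the other lists met both, covering 28.6 to 29.6% of the first and 39.7 to 57.4% of the second. The median control load of the members on chromosome 16 was 45.7, 51.96, 54.9 and 47.1 per kb, above that of its comparison window, 37.5, 30.5, 51.2 and 42.5.

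Chromosomes 7 and 19 had sparse ends in wild type. On chromosome 7 islands covered 3.54% and 3.18% of the end against 5.26% and 6.11% of the next 6 Mb in wild type, but 4.74% and 4.24% against 3.89% and 3.63% in BD1del. On chromosome 19 the end was covered to 3.24%, 4.18%, 4.42% and 4.06%, below the next 6 Mb at 5.05%, 4.76%, 5.63% and 5.24%. Both ends held islands of high fold.

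The member of highest fold among those with at least 10 control reads in wild-type spermatocytes lay on the sparse end of chromosome 7, from 3524401 to 3525200. Its fold was 22.9 (12.05 to 48.9), from 128 ChIP and 10 control reads. An island of each other list met it, with folds of 8.57, 3.81 and 10.1. The next in wild-type spermatocytes lay on chromosome 10, from 3831001 to 3833000, with 648 ChIP and 54 control reads and a fold of 21.5 (16.2 to 28.9); islands of BD1del spermatocytes and round spermatids met it with folds of 4.30 and 11, and no wild-type round spermatid island did. The third lay on chromosome 8, from 3620601 to 3622000, at 10.6 (6.10 to 19.8), and 1 BD1del spermatocyte island of fold 7.75 met it. All 3 had between 10.7 and 27.0 control reads per kb, below the median of the members.

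In the other lists, 7 of the 9 members of highest fold met no island of another list. Of regions merged over the lists, 83.5% at the ends and 85.5% in the comparison window came from 1 list. At the ends 47.5% came from BD1del round spermatids alone and 10.5% from wild-type round spermatids alone. The pooled share is therefore not matched to the members of each list. The 7 of 9 are thus not read as a trait of members of high fold. The 3 members of highest fold in wild-type round spermatids lay on chromosome 19 from 3666601 to 3667000, at a fold of 9.47 (4.39 to 22.1), on chromosome 15 from 3168401 to 3169400, at 9.18 (5.73 to 15.1), and on chromosome 4 from 3573801 to 3574200, at 8.95 (4.27 to 20.1). None of these met an island of another list. In BD1del spermatocytes the highest was on chromosome 19 from 3327001 to 3328000, at 31.3 (16.3 to 65.9), which met none either. In BD1del round spermatids it was on chromosome 16 from 3986001 to 3986600, at 28.9 (14.5 to 63.6), again met by none, followed by chromosome 19 from 3823801 to 3824800, at 23.7 (14.4 to 40.7), which met a wild-type spermatocyte island of fold 2.63. The intervals are wide because these islands had 10 to 26 control reads.

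Over the full lists, overlap between the stages was close to that in the comparison window when islands were counted. In wild type 53.4% (46.8 to 59.9%) of spermatocyte members met a round spermatid island in 1 base or more, against 50.2% (47.3 to 53.1%) in the 4 to 10 Mb window and 54.7% over all islands of the 17 chromosomes. The reverse share was 27.4% (23.4 to 31.8%), against 24.2% and 23%. In BD1del 20.4% (17.4 to 23.6%) of spermatocyte members met a round spermatid island, against 18.7% and 19.2%, and the reverse share was 10.8% (9.17 to 12.7%), against 10.5% and 10.7%. This did not hold for the islands of lowest p. With each list limited to its 10000 islands of lowest p, 25.8% of wild-type spermatocyte members met a round spermatid island, against 14.7% in the comparison window, and 31.5% against 13.6% in the reverse direction. In BD1del the shares were then 15.2% against 2.76% and 16.7% against 2.45%. These rest on 54 to 66 members per list, of which 17 were met in either direction in wild type and 10 in BD1del.

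Between genotypes the interval at the ends lay above that of the comparison window in 3 of 4 directions. Of wild-type round spermatid members 27.6% (23.6 to 32.0%) met a BD1del island, against 21.5% (19.9 to 23.2%) in the comparison window and 23.1% over the 17 chromosomes. In the reverse direction the share was 10.6% (8.95 to 12.4%), against 7.21% (6.64 to 7.81%) and 8.1%. In spermatocytes 24.8% (19.4 to 30.8%) of wild-type members met a BD1del island, against 21.9% and 25.1%. Of BD1del spermatocyte members 9.52% (7.41 to 11.999%) met a wild-type island, against 6.41% (5.68 to 7.20%) and 6.65%. In all 4 directions the other list also covered more of the ends than of the comparison window. BD1del round spermatids covered 6.21% against 4.94%, and wild-type round spermatids 5.78% against 3.97%. For BD1del spermatocytes it was 6.81% against 5.46%, and for wild-type spermatocytes 4.68% against 3.09%. The shares of islands met are not adjusted for this coverage, and its part in them was not tested.

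**Figure D5:**
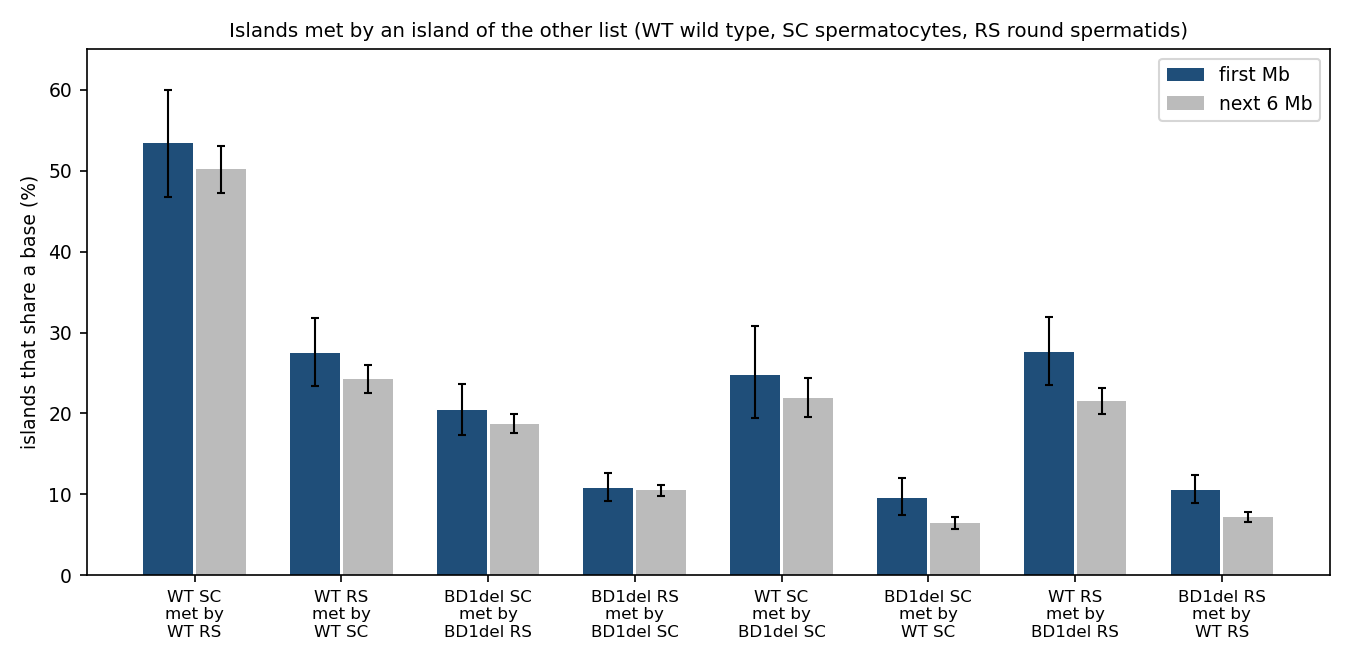
Share of islands in the first Mb (blue) and the next 6 Mb (grey) met in 1 base or more by the other list, for both directions of the 4 comparisons, with exact 95% intervals. The pairs of bars lie close together between stages, and the blue bar is the higher one in all 8 pairs, by the widest margin for wild-type round spermatids met by BD1del. In every pair the other list also covers more of the first Mb than of the next 6 Mb.

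Counted in bases, a larger share of what 1 list covered was covered by another at the ends, where each list also covers more. Of the bases covered at the ends in wild-type round spermatids, 24.0% were covered in BD1del round spermatids too, against 9.49% in the comparison window, while the BD1del list covered 6.21% and 4.94% of those windows. For BD1del spermatocytes and BD1del round spermatids the common share was 19.8% at the ends and 8.98% in the comparison window. Between wild-type and BD1del spermatocytes it was 19.9% and 11.5%. Between the wild-type stages, 37.9% of the spermatocyte bases were common at the ends and 31.4% in the comparison window. Divided by the share of the window that the other list covers, the common share was 3.87 at the ends and 1.92 in the comparison window for round spermatids of the genotypes. It was 3.19 and 1.82 for the BD1del stages and 2.92 and 2.11 for spermatocytes, but 6.55 and 7.91 for the wild-type stages, which went the other way. The long islands described above enter these sums with their full length.

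Merged over the lists, the islands formed 2111 regions at the ends, of which 1763 (83.5%) came from 1 list alone and 27 (1.28%) from all 4. In the comparison window 11003 of 12862 regions (85.5%) came from 1 list and 96 (0.746%) from all 4. The 27 regions lay on 12 chromosomes, 5 each on chromosomes 4 and 18 and 3 each on 9 and 19, and 15 of them started within the first 300 kb. Of all 27 regions, 5 had a fold of at least 2 in every list, 1 of them with under 10 control reads in a list. Among regions with at least 10 control reads in every list, the one with the highest lowest fold lay on chromosome 7, 3523201 to 3525600, where the folds were 22.9, 8.57, 3.81 and 10.1. It was followed by the loaded islands of chromosomes 12 and 9. Next came a region on chromosome 19, 3595001 to 3596400, with folds of 2.01, 2.32, 4.12 and 4.79 from 58 to 103 control reads, and a region on chromosome 18, 3113401 to 3123200, with folds of 2.39, 2.43, 1.84 and 4.20.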

How the data were processed

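Brdt ChIP-seq islands of 4 libraries were analysed; the 4 input libraries entered only as control counts. The submitters' processing notes name SICER and mm9, and a window of 200 bases, a gap of 600 and an FDR of 0.01 are read from the names of the lists. Aligner, versions, duplicate treatment and the input behind each list are not given in the sources used here. The authors deposited raw ChIP and control counts of reads for each island, the p-value and FDR are the authors', and the fold is the deposited ratio of ChIP to library-scaled control. From counts and fold the ChIP to control library ratio was 0.559, 0.264, 0.177 and 0.184. Depth is given as reads in islands.

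Covered bases were clipped at window limits, and overlap required 1 base. Intervals are exact (Clopper-Pearson, 95%), those of covered ratios scaled from island counts. The functions for overlap and for covered bases were tested on simulated data, and the others were not. Python 3.11.15, pandas 2.3.3, numpy 2.4.6 and scipy 1.17.1 were used. Named islands were, per list, the 3 leading ones by fold among those of 10 or more control reads, the 3 longest and the 3 of at least 1000 bases with most control reads per kb; also the 5 shared regions of highest lowest fold, the first island of an end, and islands at 4 Mb. The report gives the leading ones. The regions, the rule and the alternatives were chosen with earlier results of these data known; the levels of 200 and 1000 control reads per kb were set after seeing these lists. No mm9 sequence or gene annotation was used here, so islands carry no gene names.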

Additional observations from a re-analysis of the deposited data

Results flagged for a closer look

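At the 4 autosome-end islands of over 1000 control reads per kb that all lists hold, the deposited fold differed between stages in opposite directions in the 2 genotypes. The intervals behind this cover counting error and not the library scaling. The fold in round spermatids divided by that in spermatocytes was 1.54 in wild type and 0.669 in BD1del on chromosome 9, and 1.57 and 0.714 on chromosome 12. On chromosome 4 it was 1.31 and 0.665, and on chromosome 11 it was 1.22 and 0.727. The same directions were seen at loaded islands away from the ends, so they are not particular to the ends. On chromosome 9 from 35112601 the folds were 2.13 and 3.44 in wild type and 7.72 and 5.95 in BD1del. Not all such islands had them: on chromosome 4 from 64158601 the BD1del folds were 3.91 and 4.15. At the 4 end islands, counts without library scaling gave wild-type ratios of 0.726, 0.743, 0.620 and 0.577 on chromosomes 9, 12, 4 and 11. These lay on the same side of 1 as those of BD1del, 0.693, 0.739, 0.688 and 0.753. The opposite directions thus rest on the library scaling, and the unscaled ratios, which differ only by it, are no second readout. Unscaled counts carry the ratio of ChIP to control library size, which was 0.559 and 0.264 in wild type and 0.177 and 0.184 in BD1del. They therefore cannot decide the direction. With 1 library per group this difference was not tested, the 4 islands share their libraries, and genotype and read set cannot be told apart.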

How the results depend on the processing

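In the order of the lists used above, the ratio of the covered share of the ends to the 4 to 10 Mb window was 1.51, 1.45, 1.25 and 1.26, and it stayed above 1 in 67 of 68 alternatives. It fell to 0.975 in BD1del spermatocytes without the first 200 kb, which gave 1.23, 1.15 and 1.11 in the other lists; without the first 100 kb it was 1.22, 1.01 and 1.14 from wild-type round spermatids on. The 10000 islands of lowest p gave 2.01, 2.86, 3.93 and 4.86. That cut keeps few members, and it is a larger part of 36615 wild-type spermatocyte islands than of 201828 BD1del round spermatid islands. These 4 values are therefore not comparable between lists. An end window to 3.5 Mb gave 1.98, 1.85, 1.57 and 1.48, and one to 5 Mb gave 1.27 and 1.20 in wild type and 1.17 in BD1del round spermatids. An FDR of at most 1e-10 gave 1.99 and 1.70 in wild type, and a fold of at least 2 gave 1.78, 1.13 and 1.04 in the first 3 lists. In BD1del, leaving out the top 1% by control load gave 1.05 and 1.15, and leaving out islands over 200 control reads per kb gave 1.05 and 1.17. The median end share over chromosomes divided by the median share of the comparison window gave 1.03 in BD1del spermatocytes. The median of the ratios of single chromosomes was 1.0006 there. Leaving out 1 chromosome at a time gave 1.41 to 1.61, 1.38 to 1.55, 1.17 to 1.28 and 1.21 to 1.29. Removal of the first 100 kb, of the longest island and of islands over 200 or 1000 control reads per kb was chosen after seeing the data.

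Overlap is given as spermatocytes and then round spermatids of each comparison. Between wild-type stages it was 35.5% and 18.97% with the strict FDR, 34.8% and 7.44% with a fold of at least 2, and 25.8% of spermatocyte islands with 10000 islands per list. Between BD1del stages it was 13.9% and 6.46%, 17.2% and 8.71%, and 15.2% and 16.7%. The comparison window gave 23.4% and 8%, 39.2% and 7.24%, and 14.7% in the same order for wild type, and 13.6% and 6.28%, 17.7% and 9.38%, and 2.76% and 2.45% for BD1del. In spermatocytes the 10000 islands gave 13.6% of wild-type and 13.6% of BD1del members, while the comparison window gave 3% and 3.45%, and for BD1del the strict FDR gave 4.20% and the fold limit 2.41%. In round spermatids wild type had 20.7%, 22.7% and 12.96% under FDR, fold and 10000 islands, and BD1del had 2.42% and 5.76% under FDR and fold. An overlap of 50% gave 35.04% for wild-type spermatocytes, 9.38% and 7.61% for the BD1del stages, 12.4% for wild-type spermatocytes met by BD1del, and 12.1% and 8.16% for wild-type and BD1del round spermatids met by each other. With at least 10 control reads BD1del round spermatids had 12.7% met by the other stage and 12.5% met by wild type. The cause of these shifts was not tested.

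The pooled fold was 1.69, 1.94, 2.42 and 4.19 without the chromosome 9 island, which is also the longest in 3 lists, 7.16 in BD1del spermatocytes without their longest, and 1.62, 1.90, 1.97 and 4.21 without all islands of over 1000 control reads per kb. The 1.97 still includes the longest island of BD1del spermatocytes, on chromosome 11, at 829 control reads per kb. Total reads of the libraries were not used here, so what depth adds to the difference between lists was not tested. Counts without library scaling at the 4 islands of over 1000 control reads per kb were an alternative chosen after seeing the data. They gave wild-type stage ratios of 0.726, 0.743, 0.620 and 0.577 on chromosomes 9, 12, 4 and 11. The BD1del over wild-type ratio on such counts was 0.899 and 0.878 in spermatocytes on chromosomes 4 and 11, and 0.999 in round spermatids on chromosome 4. Such counts differ from the fold only by the library ratio of each list, so they are no independent check and cannot decide a direction. No paired analysis was possible because each group had 1 library.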

Other observations

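A stretch on chromosome 2, away from the ends, was loaded with control reads much like the chromosome 9 end. It lay from 98499601 to 98507800 in wild-type spermatocytes and from 98501601 to 98507600 in both round spermatid lists, with 8665, 11691, 9127 and 11977 control reads per kb in the 4 lists. Its folds were 1.78 (1.76 to 1.80), 3.26 (3.23 to 3.30), 6.09 (6.03 to 6.15) and 5.43 (5.37 to 5.49). On these folds round spermatids lay above spermatocytes in wild type and below them in BD1del, as at the 4 loaded islands of the ends. This stretch was chosen after its values were seen.

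The comparison window of chromosome 10 held a loaded stretch of its own in wild type, 7228801 to 7238000 in spermatocytes and 7229201 to 7237800 in round spermatids, with 2143 and 2661 control reads per kb and folds of 1.33 and 2.14. No BD1del island there passed 1000 control reads per kb. It was named after its values were seen.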
